A study of Mus musculus with 2 samples.

Results

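The cells described here were 96 splenic CD4+ T cells with the largest share of transcripts from Ncl, Npm1, Eif5a, Mif and Nhp2, and they are called Ncl-high cells. They were taken from 963 eligible cells of the spleen, which had an mt- share (transcripts of the mitochondrial genome) below 6%, 0 Foxp3 UMIs, a Ccl5 share below 0.5% and fewer than 5 summed UMIs of Mki67, Top2a, Birc5, Cdk1 and 2810417H13Rik. A UMI is a molecular tag that marks 1 captured transcript. Among the eligible cells the Ncl-high cells were the 10% with the highest summed share of the 5 genes, and the other 867 are called other eligible cells. The series held 3212 cells in all.

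The study asked whether CD4+ T cells that produce IL-10 are alike, and sorted such cells by an eGFP reporter of Il10 from the spleen and the small intestine. Both tissues came from double reporter mice (IL-10 eGFP and Foxp3 mRFP) of 8 to 16 weeks. All groups were treated alike: anti-CD3 antibody (clone 2C11, 15 µg into the peritoneum) was injected on days 0 and 2, and the organs were taken 4 h after the last injection. Foxp3+ cells were kept in the sort, and there was no untreated group. Each tissue was 1 droplet library on the 10x Genomics Chromium platform, and the number of mice behind it was not given in the sources used here. The splenic library held 1738 barcodes and 11103530 UMIs, the intestinal library 1474 barcodes and 5693395 UMIs, and 0 barcodes were shared. With 1 library a tissue there is no test between groups of cells, and all intervals below are 95% intervals for counting error only.

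A T cell that has been stimulated through its receptor grows before it divides. The transcription factor Myc, which pairs with Max, raises genes for ribosome assembly in the nucleolus, for translation, for nucleotide and polyamine synthesis and for amino acid uptake, and proteins of the Mxd family compete with Myc for Max. Cells in this phase are enlarged and are called blasts. Cell size was not measured here, so the name Ncl-high refers to transcripts alone.

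Of the 5 genes that chose the cells, 4 have a known part in ribosome assembly or translation. Ncl (nucleolin; chr1:86344719-86359400, minus strand, GRCm38) and Npm1 (nucleophosmin; chr11:33152287-33163206, minus strand) are abundant nucleolar proteins that bind ribosomal RNA and assembling ribosomes. Nhp2 (chr11:51619735-51623714, plus strand) is a protein of the particles that modify ribosomal RNA. Eif5a (chr11:69916714-69921958, minus strand) is a translation factor that carries hypusine, an amino acid made from a polyamine. Mif (chr10:75859353-75860240, minus strand) encodes a cytokine and lies outside these pathways. These positions are GENCODE gene spans, which run over all transcripts of a gene.

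The E-box CACGTG, which reads the same on both strands, is the sequence that Myc and Max bind. It was searched for in RefSeq promoter windows of mouse build GRCm38.p6, from 250 bases before to 50 bases after each annotated start. Of the 5 genes, 4 had a window, and that of Eif5a alone held the 6 letters. Of the 53 ribosome assembly genes with a window (from a list of 60), 12 held it (22.6%), against 2187 of all 27025 genes (8.09%). The stretches of 30 bases below come from Eif5a and from 3 listed genes whose E-box lay before the start. Stretches in an exon of the gene itself and windows on a single chromosome were left out. Among the listed genes that remained, these 3 had the most UMIs in the Ncl-high cells. They are printed 5′ to 3′ on the strand of the gene with the E-box in capitals, and show which promoter letters the growth genes of these cells can share.
Eif5a: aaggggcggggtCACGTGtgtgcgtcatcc
Imp4: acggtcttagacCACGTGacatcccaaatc
Utp18: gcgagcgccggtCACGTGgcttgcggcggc
Nop2: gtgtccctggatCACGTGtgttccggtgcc
The Eif5a stretch lies at chr11:69921443-69921472 on the minus strand, with its E-box beginning 74 bases before one RefSeq start of the gene and inside the wider GENCODE span, in an intron of its longest transcript. That of Imp4 (a small subunit assembly factor) lies at chr1:34439696-34439725 on the plus strand, inside an exon of the neighbouring transcript Gm28306. Those of Utp18 (small subunit processome) and Nop2 (a ribosomal RNA methyltransferase) lie at chr11:93885769-93885798 on the minus strand and at chr6:125131811-125131840 on the plus strand. The stretches of Eif5a, Utp18 and Nop2 overlap no annotated exon. The E-box did not sort the ribosome assembly genes by level difference: the 11 measured genes with it had a median log2 ratio (Ncl-high over other eligible cells) of 1.36, and the 41 without it 1.46. A match of letters is not evidence of binding.

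The score had no gap at its border. The summed share ran from 0.672% of UMIs to a median of 0.813% and a highest value of 1.55% in the Ncl-high cells, and from 0 to a median of 0.244% in the other eligible cells. The 3 cells just inside the border had 0.671937%, 0.673256% and 0.676379%, and the 3 just outside had 0.671539%, 0.671355% and 0.670753%. Within 0.05 percentage points of the border lay 25 Ncl-high cells and 15 others. The name stands for a range of the score cut at a fixed share of cells, and these values do not say whether the cells form a type.

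**Figure D1:**
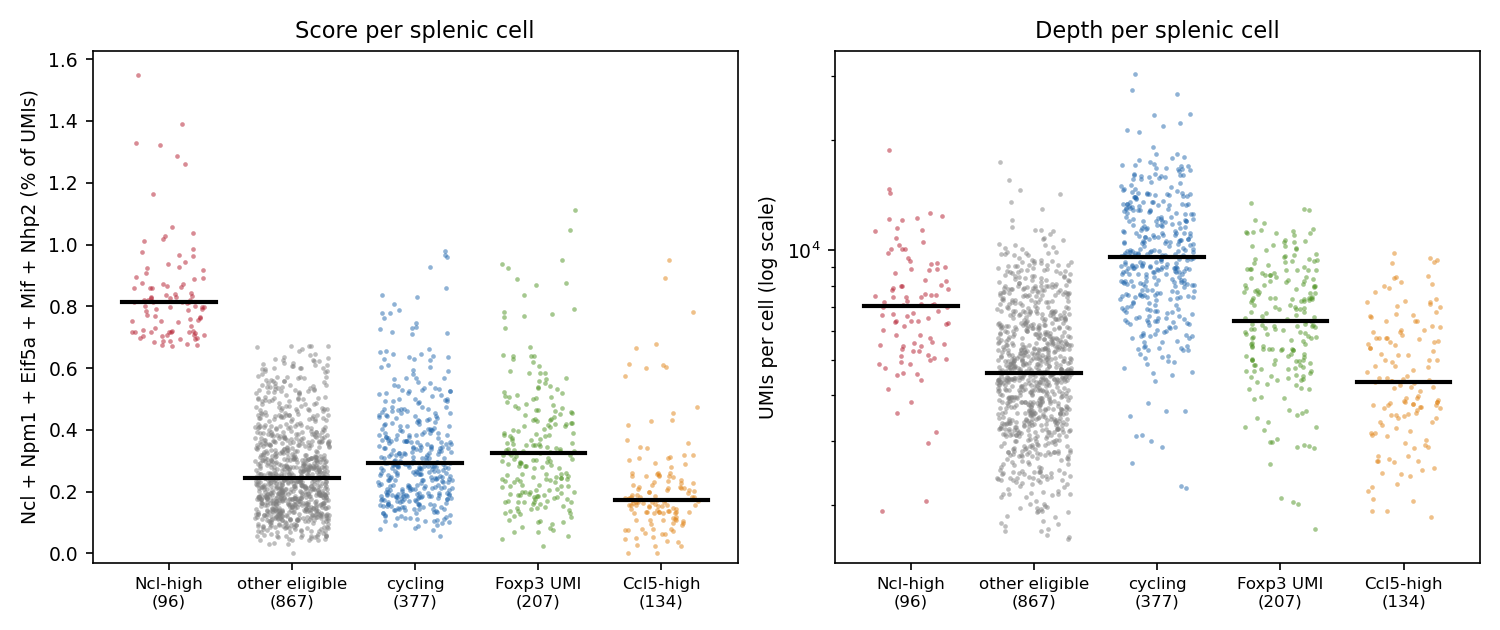
Left, summed share of Ncl, Npm1, Eif5a, Mif and Nhp2 in percent of UMIs, and right, UMIs per cell on a log scale, for each splenic cell (points) of 5 groups, with the number of cells in parentheses and medians as black lines. The Ncl-high cells begin at 0.672% by construction, and their median of 7020 UMIs lies between that of the other eligible cells (4612) and that of cycling cells (9595).

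The levels of the 5 genes chose the cells, so their differences are given as a description. Levels are UMIs per 1000000 UMIs of a group (CPM), and values of single cells are UMIs per 10000 UMIs. Npm1 stood at 2374 CPM in the Ncl-high cells and 917 CPM in the other eligible cells, and per cell it ran from 9.74 to a median of 22.7 and a highest value of 47.7. Eif5a stood at 2078 and 704 CPM, and its lowest, median and highest Ncl-high cell had 7.25, 19.9 and 54.9 per 10000 UMIs. All 96 Ncl-high cells held UMIs of both genes. Ncl stood at 1715 and 495 CPM (4.52, 15.9 and 40.9 per 10000 UMIs), Mif at 1705 and 606 CPM (3.87, 17.3 and 32.3) and Nhp2 at 552 and 162 CPM (0, 5.15 and 14.2). Ncl and Mif were likewise detected in all 96 Ncl-high cells and Nhp2 in 92, against 671, 721 and 393 of the 867 others.

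Each of the 5 genes was then left out of the score in turn and read in the cells that the other 4 chose. The held-out gene had a log2 ratio of 1.70 for Ncl (1.60 to 1.80), 1.63 for Nhp2 (1.44 to 1.81), 1.44 for Eif5a (1.35 to 1.53), 1.33 for Mif (1.23 to 1.43) and 1.25 for Npm1 (1.17 to 1.34). Between 84 and 90 of the 96 cells were chosen again. The ratio of Mif, the gene outside the ribosome pathway, lay beside that of the nucleolar gene Npm1, with intervals that overlapped. When cells were chosen on a random part of their UMIs and read on the rest, 75 of the 96 cells were chosen again and the log2 ratios were 1.72 for Ncl, 1.45 for Nhp2, 1.34 for Eif5a, 1.29 for Mif and 1.17 for Npm1.

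Depth moved with the score. Ncl-high cells held from 1932 to 18757 UMIs with a median of 7020, against 1613 to 17397 with a median of 4612 in the other eligible cells, a ratio of medians of 1.52. The median number of genes detected was 2160.5 and 1653, and the median mt- share 2.36% and 2.57%. Of the other eligible cells, 142 (16.4%) had more UMIs than the median Ncl-high cell. In 5 equal groups of eligible cells from the shallowest to the deepest, 2.07%, 1.56%, 7.77%, 13.02% and 25.4% of cells were Ncl-high. Whether more UMIs stand for more RNA in a cell or for better capture cannot be told apart in these files. Scrublet called 4 doublets in the library (0.230% of barcodes), of which 0 were Ncl-high and 3 were other eligible cells. Called doublets were left out in a separate alternative only, so that doublets were not taken out of the main groups.

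The Ncl-high cells were T cells by their markers. Cd3e, a chain of the T cell receptor complex, was detected in 86 of the 96 cells, at 412 CPM against 586 CPM, and Cd3g was detected in all 96, at 885 CPM against 1514 CPM. In UMIs per cell the direction of Cd3e turned, with a mean of 3.05 in the Ncl-high cells and 2.94 in the others, and Cd3g stood at 6.56 and 7.60. Cd4 was detected in 49 cells, at 124 CPM against 241 CPM (log2 ratio -0.97, -1.30 to -0.65). Of 9 T cell markers with enough UMIs, 0 had a log2 ratio above 0 and 4 were at least 1.5-fold lower. Their summed list had a log2 ratio of -0.59 (-0.64 to -0.53), and its part in the lower lists below was not tested. Cd8a had 0 UMIs, against a floor of 3 UMIs that stands for 4.21 CPM, and Cd8b1 had 5. Markers of other cells were near 0: the B cell list had 12 UMIs in all, 9 of them Cd74, with Cd79a, Cd79b, Ms4a1, Ebf1 and Pax5 at 0. The list of natural killer and innate lymphoid cells had 4 UMIs, 3 of them Eomes, and that of red cells and platelets had 0. The myeloid list stood at 118 CPM against 177 CPM in the other cells, mostly Cst3 (61 of 84 UMIs), a protease inhibitor gene read in 46 cells. Lyz2 (lysozyme) had 16 UMIs in 5 cells, and Itgax, Csf1r, Adgre1, S100a8, S100a9, Cd14 and Flt3 were at 0. The plasma cell list stood at 99.7 CPM against 101 CPM, 70 of its 71 UMIs from Xbp1, a factor of the secretory pathway, with Sdc1, Mzb1 and Tnfrsf17 at 0.

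Many genes beyond the 5 differed between the groups. Of 3186 genes with at least 200 UMIs over both groups, 580 were at least 1.5-fold higher in the Ncl-high cells (18.2%) and 778 at least 1.5-fold lower (24.4%), with a median log2 ratio of -0.06. The higher genes took 12.8% of UMIs in the Ncl-high cells and 6.10% in the others, and the lower genes 9.94% and 19.4%. Because the cells were chosen on the same UMIs, nothing is read from these percentages, and the counts of the lists below stand beside them as descriptions.

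Ribosome assembly moved as a block. Of its 45 genes with enough UMIs, 44 were at least 1.5-fold higher and 0 at least 1.5-fold lower, with a median log2 ratio of 1.44 against -0.06 over all genes. Together the listed genes took a median of 1.07% of UMIs in an Ncl-high cell (0.474% to 1.79%) and 0.295% in another eligible cell (0.0253% to 1.47%), so that the groups overlapped in single cells. Mrto4, an assembly factor of the large subunit, had the largest ratio of the list at 219 CPM against 49.6 CPM (log2 ratio 2.14, 1.84 to 2.45). Nolc1, a nucleolar chaperone of the modifying particles, stood at 423 against 103 CPM and was detected in 91 of 96 Ncl-high cells and 261 of 867 others. Among the most abundant members, the nucleolar helicase Ddx21 stood at 708 and 258 CPM, the modifying particle protein Nop10 at 634 and 262 CPM and the methyltransferase Fbl at 354 and 156 CPM. Tsr1 was the one gene of the list under 1.5-fold, at 47.8 and 38.6 CPM, and its interval held 0 (log2 ratio 0.31, -0.27 to 0.85). In the splenic alternatives its log2 ratio ran from 0.13 to 0.92, which is past 1.5-fold at the upper end.

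Ribosomal proteins, the finished product's own parts, differed far less than the genes that assemble them. Of 30 listed proteins, 0 reached 1.5-fold in either direction, and their median log2 ratio was 0.22. Rpl5 was the highest of them at 1535 against 1033 CPM (log2 ratio 0.57, 0.48 to 0.67), while Rpl13 stood at 8485 against 7213 CPM. All genes of ribosomal proteins took 32.8% of UMIs in the Ncl-high cells and 29.1% in the others.

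Several other growth lists were higher in the same cells. Of 15 genes of nucleotide and one-carbon metabolism with enough UMIs, 11 were at least 1.5-fold higher and 0 lower (median log2 ratio 1.20), led by Umps, which makes UMP, at 115 against 33.3 CPM, with the kinase Nme1 the most abundant at 889 against 363 CPM. Of 26 chaperones, 21 were higher and 0 lower (median 1.04), among them C1qbp, a mitochondrial protein, at 459 against 115 CPM and Hsp90ab1 at 1801 against 907 CPM. Hspa8, the constitutive Hsp70, was less apart at 2336 against 1694 CPM. Of 17 genes of mitochondrial import and translation, 15 were higher and 0 lower (median 0.93), with the import channel Tomm40 at 282 against 84.6 CPM. The lowest members of these lists, in the same order, were Psph (log2 ratio -0.18), Hsp90b1 (-0.03) and Mrpl13 (-0.33). In the splenic alternatives Psph ran from -0.67 to 0.41 and Mrpl13 from -0.87 to 0.19.

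Translation factors and enzymes that charge tRNAs followed with smaller ratios. Of 25 translation factors, 18 were higher and 0 lower (median 0.82): the helicase Eif4a1 stood at 1808 against 948 CPM and Eif3b at 333 against 118 CPM, whereas the elongation factor Eef1a1 was level at 4431 against 4451 CPM. Of 14 tRNA synthetases, 9 were higher and 0 lower (median 0.79), with Aars, for alanine, at 190 against 73.3 CPM. Qars was the lowest of them (log2 ratio -0.34, and -0.95 to -0.17 in the splenic alternatives). Of 9 polyamine genes, 5 were higher and 0 lower (median 0.66). The summed list had a log2 ratio of 0.29 (0.22 to 0.35), and Oaz1, with 1111 of its 2112 UMIs, had one of -0.11. Srm, spermidine synthase, stood at 365 against 72.9 CPM (log2 ratio 2.33, 2.08 to 2.57) and was detected in 87 of 96 Ncl-high cells and 203 of 867 others. Odc1, ornithine decarboxylase and the entry to the pathway, stood at 282 against 128 CPM.

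Energy metabolism showed no such block of genes past 1.5-fold, though the summed glycolytic list was higher. That list stood at 8100 against 6512 CPM (log2 ratio 0.31, 0.27 to 0.36). Of 15 glycolytic genes, 2 were at least 1.5-fold higher and 1 lower (median 0.14), with lactate dehydrogenase Ldha at 2468 against 1731 CPM and Pgam1 at 486 against 210 CPM. The lower gene, the lactate carrier Slc16a3, had 20 UMIs in the Ncl-high cells, and its log2 ratio of -0.84 was -0.01 with the highest 20% of the score. Of 32 genes of oxidative phosphorylation, 5 were higher and 0 lower (median 0.03). Ndufab1 was the highest of them (log2 ratio 1.19), and Cox4i1 stood at 903 against 1038 CPM. Of 4 uptake genes, 2 were higher and 0 lower, and Slc1a5, a glutamine carrier, stood at 312 against 158 CPM. The other higher one, the nucleoside carrier Slc29a1, was under 1.5-fold for cells chosen on a random part of their UMIs (log2 ratio 0.43 in place of 0.63).

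**Figure D2:**
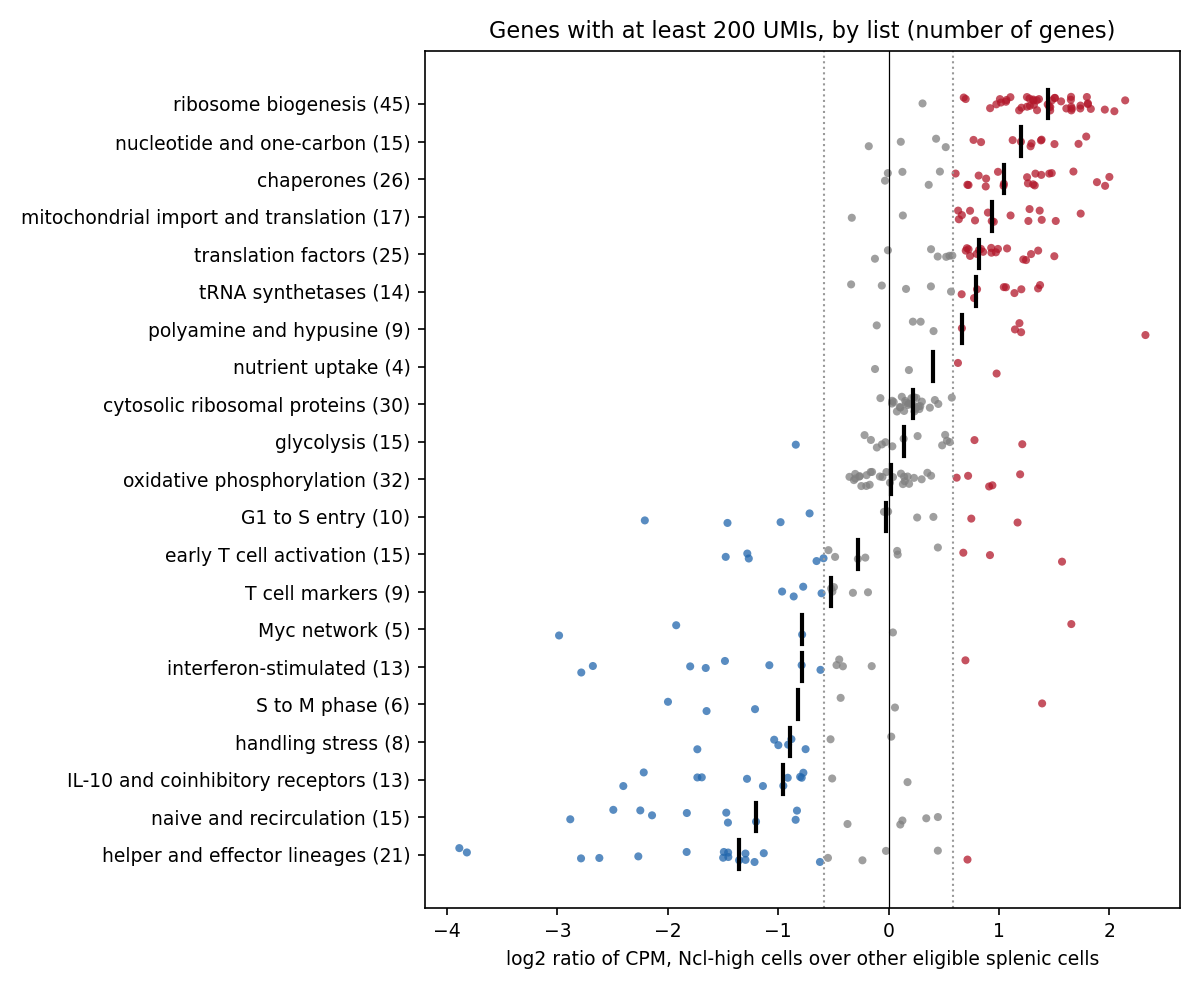
Each point is 1 gene with at least 200 UMIs over both groups, placed by its log2 ratio of CPM (Ncl-high over other eligible splenic cells) in the row of its list, with list medians as black bars and dotted lines at 1.5-fold. The ribosome assembly genes lie to the right of 1.5-fold but for Tsr1, the ribosomal proteins lie near 0, and the lists of IL-10 and coinhibitory receptors, naive cells and helper lineages have negative medians (-0.95, -1.20 and -1.35).

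Outside the 5 genes of the score, the 12 genes with the largest ratios were Atad3a, Mpp6, Srm, Tma16, Mrto4, Uck2, Pa2g4, Nolc1, Cdca7, St6galnac4, C1qbp and Gcsh. Atad3a, an ATPase of the mitochondrial inner membrane, had the largest ratio at 211 against 38.2 CPM (log2 ratio 2.47, 2.14 to 2.79), and was detected in 74 of 96 Ncl-high cells and 126 of 867 others. Pa2g4, a nucleolar and ribosome-bound protein, stood at 544 against 132 CPM, and the uridine kinase Uck2 at 126 against 30.6 CPM. Gcsh belongs to the glycine cleavage system and stood at 112 against 28.3 CPM.

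Myc itself was higher in the Ncl-high cells. Myc stood at 192 CPM in the Ncl-high cells and 61.1 CPM in the others (log2 ratio 1.65, 1.35 to 1.96), with 60 of 96 and 162 of 867 cells holding a UMI. Per cell it ran from 0 to a median of 1.57 and a highest value of 11.2 per 10000 UMIs, so that 36 Ncl-high cells showed none of it. Its partner Max was level at 114 against 111 CPM (log2 ratio 0.04, -0.32 to 0.38). Mxd4 stood at 7.02 against 55.6 CPM (log2 ratio -2.99, -4.62 to -1.74) on 5 UMIs in the Ncl-high cells, and Mlx, a relative of Max, at 32.3 against 55.6 CPM (log2 ratio -0.78). The log2 ratio of Mxd4 was -2.35 with the highest 20% of the score, and that of Mlx was -0.46, under 1.5-fold, without the filters on Foxp3, Ccl5 and cycling genes. Of the 12 listed genes of the Myc network 5 had enough UMIs, of which 1 was at least 1.5-fold higher and 3 lower, and the summed list had a log2 ratio of 0.13 (-0.05 to 0.30).

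Cell cycle genes were mixed. The rule removed cycling cells, so that the 2 UMIs of Mki67, one of its genes, were fixed by it. Its limit is a number of UMIs and so was tighter for deeper cells. The part of this filter in the levels of other cell cycle genes was not tested. Of 6 genes of the S to M phases with enough UMIs, 1 was higher and 3 lower. The higher one, the tubulin Tuba1b, stood at 406 against 155 CPM, and Hmgb2 at 155 against 485 CPM. Cenpa was the lowest of them (log2 ratio -2.00, and -2.96 to -1.19 in the splenic alternatives). Without the filters on Foxp3, Ccl5 and cycling genes the log2 ratio of Tuba1b was 0.18 in place of 1.39, under 1.5-fold. Among 10 genes of the entry into S phase, 2 were higher and 4 lower. For both lists the shares over all genes were 18.2% higher and 24.4% lower. Cdk4, the kinase of G1, stood at 242 against 108 CPM and its partner Ccnd2 (cyclin D2) at 1298 against 773 CPM, whereas Ccnd3 (cyclin D3) stood at 45.0 against 124 CPM and Cdkn1b, a cell cycle inhibitor, at 11.2 against 51.9 CPM. For Ccnd2 the same rule in the small intestine gave a log2 ratio of -0.07.

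Il10, the gene by whose reporter all these cells were sorted, was lower in the Ncl-high cells. They held 126 Il10 UMIs (177 CPM) against 1874 in the others (431 CPM), a log2 ratio of -1.28 (-1.55 to -1.02). Il10 was detected in 44 of 96 Ncl-high cells and 502 of 867 others although the Ncl-high cells were deeper, and the mean number of Il10 UMIs per cell was 1.31 and 2.16. The median Ncl-high cell had 0 Il10 UMIs and the highest 20, and the median other cell had 1 and the highest 27, so that the groups overlapped widely. The size of the difference varied: with every cell thinned to 2000 UMIs before the score was taken, which also changed which cells were chosen, the log2 ratio was -0.57, with the cells chosen on a random part of their UMIs it was -0.74, and against other cells matched on UMIs it was -1.32. The reporter transcripts were hardly read at all, with 0 UMIs of eGFP and 1 of mRFP in the Ncl-high cells.

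Most genes of the list of IL-10 and coinhibitory receptors (cell surface brakes on T cells) were lower too. The list also holds other genes, such as Prdm1 and Icos, and the coinhibitory receptors were not counted alone. Of 13 genes of the IL-10 and coinhibitory receptor list with enough UMIs, 0 were at least 1.5-fold higher and 11 at least 1.5-fold lower, with a median log2 ratio of -0.95. Lag3 stood at 754 against 1289 CPM, Ctla4 at 587 against 1138 CPM and the costimulatory receptor Icos at 457 against 788 CPM. The 3 genes fell short of 1.5-fold in some splenic alternatives, with log2 ratios that went from -0.77 to -0.41 for Lag3 and from -0.79 to -0.38 for Icos with the highest 20% of the score, and from -0.95 to -0.35 for Ctla4 with thinned cells. Prdm1, which encodes the factor Blimp-1, was the lowest of the list at 12.6 against 66.9 CPM (log2 ratio -2.40, -3.55 to -1.46), and its log2 ratio was -1.15 without the filters on Foxp3, Ccl5 and cycling genes and -1.28 with the highest 20% of the score. Cd200 was the one with a ratio above 0 (229 against 203 CPM, log2 ratio 0.17, -0.08 to 0.41). In UMIs per cell the difference was smaller: the mean Ncl-high cell held 5.59 Lag3, 4.35 Ctla4 and 3.39 Icos UMIs, and the mean other cell 6.47, 5.71 and 3.96. The list took a median of 0.239% of UMIs in an Ncl-high cell (0.0518% to 1.33%) and 0.449% in another cell (0 to 2.61%).

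Genes of lineage and effector function were the lowest of the lists. Of 21 with enough UMIs, 16 were at least 1.5-fold lower and 1 higher, with a median log2 ratio of -1.35. Ccl5, which the rule capped, is one of them, and the other 20 genes had 15 lower, 1 higher and a median of -1.37. Ifng, interferon gamma, had 3 UMIs in 2 Ncl-high cells (4.21 CPM) against 59.5 CPM in the others, and its log2 ratio of -3.82 was -0.66 with thinned cells, -1.39 with the border at the highest 20% of the score and -2.16 with the score without Npm1. The chemokine Ccl4 stood at 26.7 against 395 CPM, but this value rested on few cells, the highest other cell held 250 Ccl4 UMIs, and with the border at the highest 20% of the score the log2 ratio turned to 0.57. S100a6, a calcium-binding protein of effector cells, stood at 518 against 1465 CPM, and S100a11 at 381 against 1043 CPM. The higher gene was Il21, a helper cytokine, at 133 against 81.4 CPM (log2 ratio 0.71, 0.37 to 1.04), and among cells with 0 UMIs of the cycling genes its log2 ratio was 0.37, under 1.5-fold.

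Most genes of naive and recirculating T cells were lower in the Ncl-high cells too. Of 15, 0 were at least 1.5-fold higher and 10 at least 1.5-fold lower (median log2 ratio -1.20). S1pr1, the receptor that lets T cells leave lymphoid tissue, had 9 UMIs in 9 cells (12.6 CPM) against 93.3 CPM (log2 ratio -2.88, -4.02 to -1.94). Klf2, the factor that drives S1pr1, stood at 87.1 against 414 CPM (log2 ratio -2.25, -2.64 to -1.88), whereas in the small intestine the same rule gave a Klf2 log2 ratio of 1.43 (0.45 to 2.31). Satb1 was level at 375 against 344 CPM. Ccr7, the highest of the list, went the other way (log2 ratio 0.45), under 1.5-fold, and turned to -0.20 after thinning. Of the 15 genes, 4 lay above 0.

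Of 15 early activation genes, 3 were at least 1.5-fold higher and 5 lower (median log2 ratio -0.28), which is near the shares over all genes (18.2% and 24.4%). Tnfrsf9, which encodes the costimulatory receptor 4-1BB, stood at 482 against 162 CPM (log2 ratio 1.57, 1.38 to 1.76) and was detected in 69 of 96 and 233 of 867 cells, and the transcription factor Irf8 stood at 1096 against 580 CPM. Egr1, an immediate early gene, stood at 18.3 against 50.8 CPM. Of 4 regulatory T cell markers, 1 was higher and 3 lower: Il2ra, the high-affinity chain of the IL-2 receptor, stood at 169 against 106 CPM, and Ikzf2 (Helios) at 67.4 against 224 CPM. The other 2 lower genes were Tnfrsf18, the costimulatory receptor GITR, at 458 against 689 CPM (log2 ratio -0.59) and the actin-capping protein gene Capg at 117 against 224 CPM (-0.94). Tnfrsf18 lay close to the 1.5-fold limit. The Ncl-high cells were deeper (ratio of median UMIs 1.52), so that a like number of UMIs per cell gives a ratio of this size. Each of the 4 was under 1.5-fold in at least 1 splenic alternative, Il2ra with a log2 ratio of 0.42 against other cells matched on UMIs, Ikzf2 with -0.53 and Capg with -0.35 in thinned cells, and Tnfrsf18 with -0.20 for cells chosen on a random part of their UMIs. Foxp3 was at 0 by the rule.

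Interferon-stimulated genes and genes that answer to handling of cells were mostly lower. Of 13 interferon-stimulated genes, 8 were at least 1.5-fold lower and 1 higher (median log2 ratio -0.79), with Ifi27l2a at 2995 against 5172 CPM, Rtp4 at 14.0 against 96.8 CPM and Socs1, a brake on cytokine signals, at 199 against 123 CPM. Socs1 was under 1.5-fold with the highest 5% of the score (log2 ratio 0.47), and Ifi27l2a with the highest 20% (-0.46). Of 8 handling genes, 6 were lower and 0 higher (median -0.90), with Junb at 525 against 988 CPM and Jund level at 1170 against 1152 CPM. All mice had received anti-CD3 4 h before the organs were taken, so that an answer to handling and one to the antibody cannot be told apart. The part of these 2 lists in the other differences was not tested.

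The 12 genes with the smallest ratios were Ccl4, Ifng, Gm26740, Vps37b, Tcp11l2, BC094916, Trim12c, Tmem71, Pyhin1, Mxd4, S1pr1 and Pydc4. Their levels in the Ncl-high cells ran from 4.21 CPM (Ifng) to 26.7 CPM (Ccl4), that is from 3 to 19 UMIs each. Pyhin1, an interferon-inducible gene, had the most UMIs of them after Ccl4, with 14 in 13 cells, at 19.7 against 156 CPM. On so few UMIs the size of these ratios moved with the choice of cells. With the highest 20% of the score the log2 ratios of Pyhin1 (-2.99), BC094916 (-3.16), Vps37b (-3.22) and Pydc4 (-2.83) were -1.35, -1.55, -1.86 and -1.13, and with thinned cells those of Trim12c (-3.15) and Tcp11l2 (-3.20) were -1.47 and -2.03.

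The growth genes and the T cell genes followed the score in different ways. Eligible cells were placed in 10 equal groups by score, from group 1 with the lowest scores to group 10, the Ncl-high cells. Ribosome assembly genes stood at 2045 CPM in group 1, 2911 in group 5, 5943 in group 8, 7796 in group 9 and 10566 in group 10, and Srm at 0, 41.6, 111, 204 and 365 CPM. Myc stood at 34.3, 47.9, 84.6, 121 and 192 CPM in these groups. Klf2 went the other way in the upper groups. It stood between 492 and 594 CPM in groups 1 to 4 and at 360 and 443 CPM in groups 5 and 6. From group 7 to group 10 it stood at 341, 282, 208 and 87.1 CPM.

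Il10, Ctla4 and Prdm1 were not graded over most of the range. Il10 stood between 349 and 552 CPM in groups 1 to 9 and at 177 CPM in group 10, and Ctla4 between 901 and 1442 CPM and then at 587 CPM. Prdm1 stood between 48.2 and 82.0 CPM in groups 1 to 9 and at 12.6 CPM in group 10. The median number of UMIs per cell moved with the score as well, from 3496 in group 1 to 6081 in group 9 and 7020 in group 10, and its part in these levels was not tested.

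**Figure D3:**
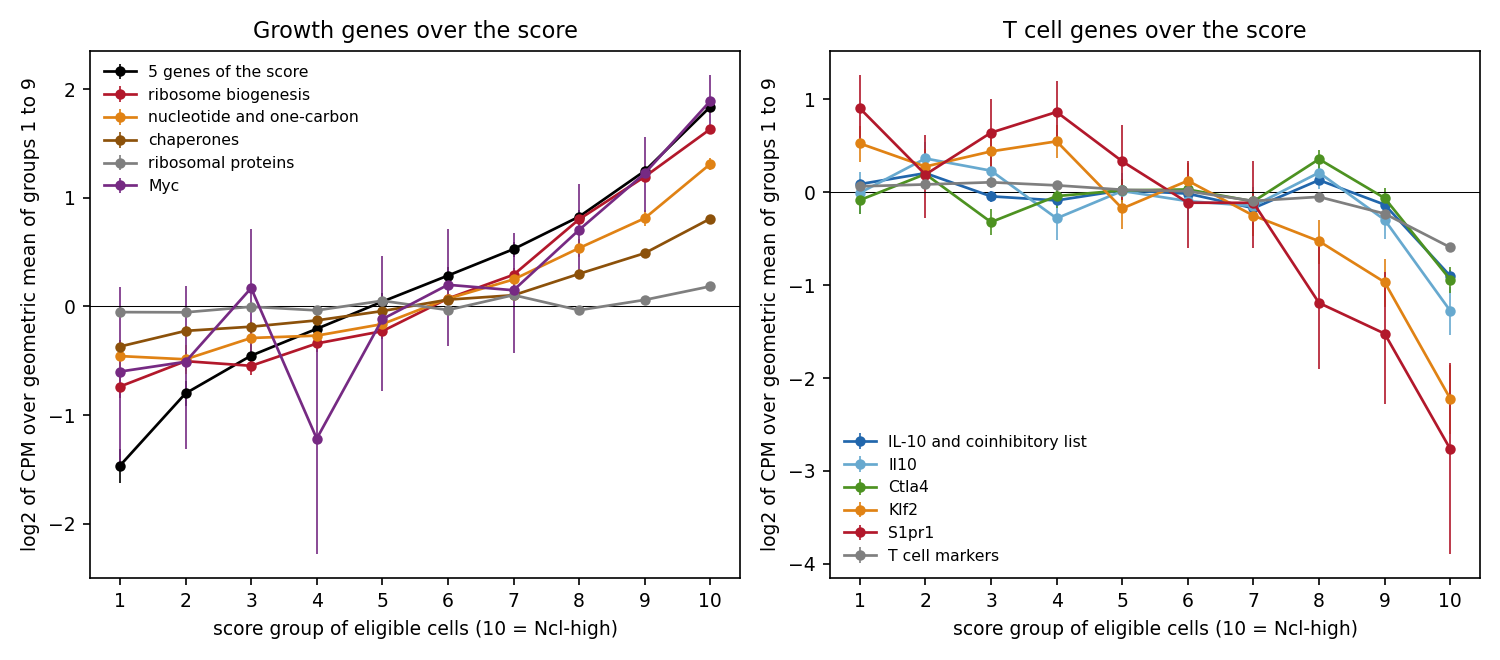
Levels in 10 groups of the 963 eligible splenic cells by score (10 is the Ncl-high cells), as log2 of CPM over the geometric mean of groups 1 to 9, with exact Poisson 95% intervals as vertical lines. Left, growth lists and Myc are highest in group 10, while ribosomal proteins stay near 0; right, Klf2 and S1pr1 are lower from group 8 on, and Il10, Ctla4 and their list are lowest in group 10.

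Many Ncl-high cells had each other as neighbours in the rest of their transcripts, less so at equal depth. In a space of 20 principal components from 1000 variable genes, the 5 score genes left out, a mean of 70.6% of the 15 nearest neighbours of an Ncl-high cell were Ncl-high (lowest 13.3%, median 80%, highest 100%), against 9.97% of all eligible cells and 4.08% around other cells. In 72 of the 96 cells at least 50% of the neighbours were Ncl-high. With all cells thinned to 2000 UMIs the mean was 49.5% (lowest 0, and 5.80% around other cells), 52 of 94 cells had at least 50%, and 75 of the 94 cells chosen at that depth were among the original 96.

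The genes that varied most among the Ncl-high cells mostly varied widely among the other eligible cells too. The variance over the mean of counts, scaled for depth, had a median of 1.18 over 1037 genes with enough UMIs, and was highest for Malat1, Actb, Gzmb, Ctla4, Ifi27l2a, S100a6, Tnfrsf4 and Lgals1. Malat1, a nuclear RNA, led with 41.5 (64.3 in the other cells) and ran from 0 to a median of 143 and a highest value of 504 per 10000 UMIs. Gzmb, the protease granzyme B, had an index of 24.1 (31.0 in the others), was detected in 22 cells, and took 79.0% of its 167 UMIs from 5 cells. Its log2 ratio of -1.30 turned to 0.07 with cells thinned to 2000 UMIs. The index of Ctla4 was 18.3 in the Ncl-high cells and 9.24 in the others, and that of S100a6 was 13.4 and 15.7. Ctla4 took 37.8% of its UMIs from 5 cells and S100a6 44.2%, so that the low means of both genes held a few cells with much of them.

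High scores also occurred among splenic cells that the rule left out. At or above the border were 19 of 377 cycling cells (5.04%, 3.06 to 7.76, exact binomial), 15 of 207 cells with a Foxp3 UMI (7.25%, 4.11 to 11.7) and 4 of 134 cells with a Ccl5 share of 0.5% or more (2.99%, 0.819 to 7.47). Ribosome assembly genes stood at 10566 CPM in the Ncl-high cells, 5562 in Foxp3 cells, 4832 in cycling cells and 3130 in Ccl5-high cells. Nucleotide and one-carbon genes were closer in cycling cells, at 3652 against 2861 CPM, and chaperones too, at 15328 against 13423 CPM. Myc was lower in each of these groups, at 91.8 CPM in Foxp3 cells, 55.5 in cycling and 34.4 in Ccl5-high cells, while Tnfrsf9 was higher in Foxp3 cells at 740 CPM. Il10 stood at 637, 504 and 564 CPM in the 3 groups, each above the 177 CPM of the Ncl-high cells.

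**Figure D4:**
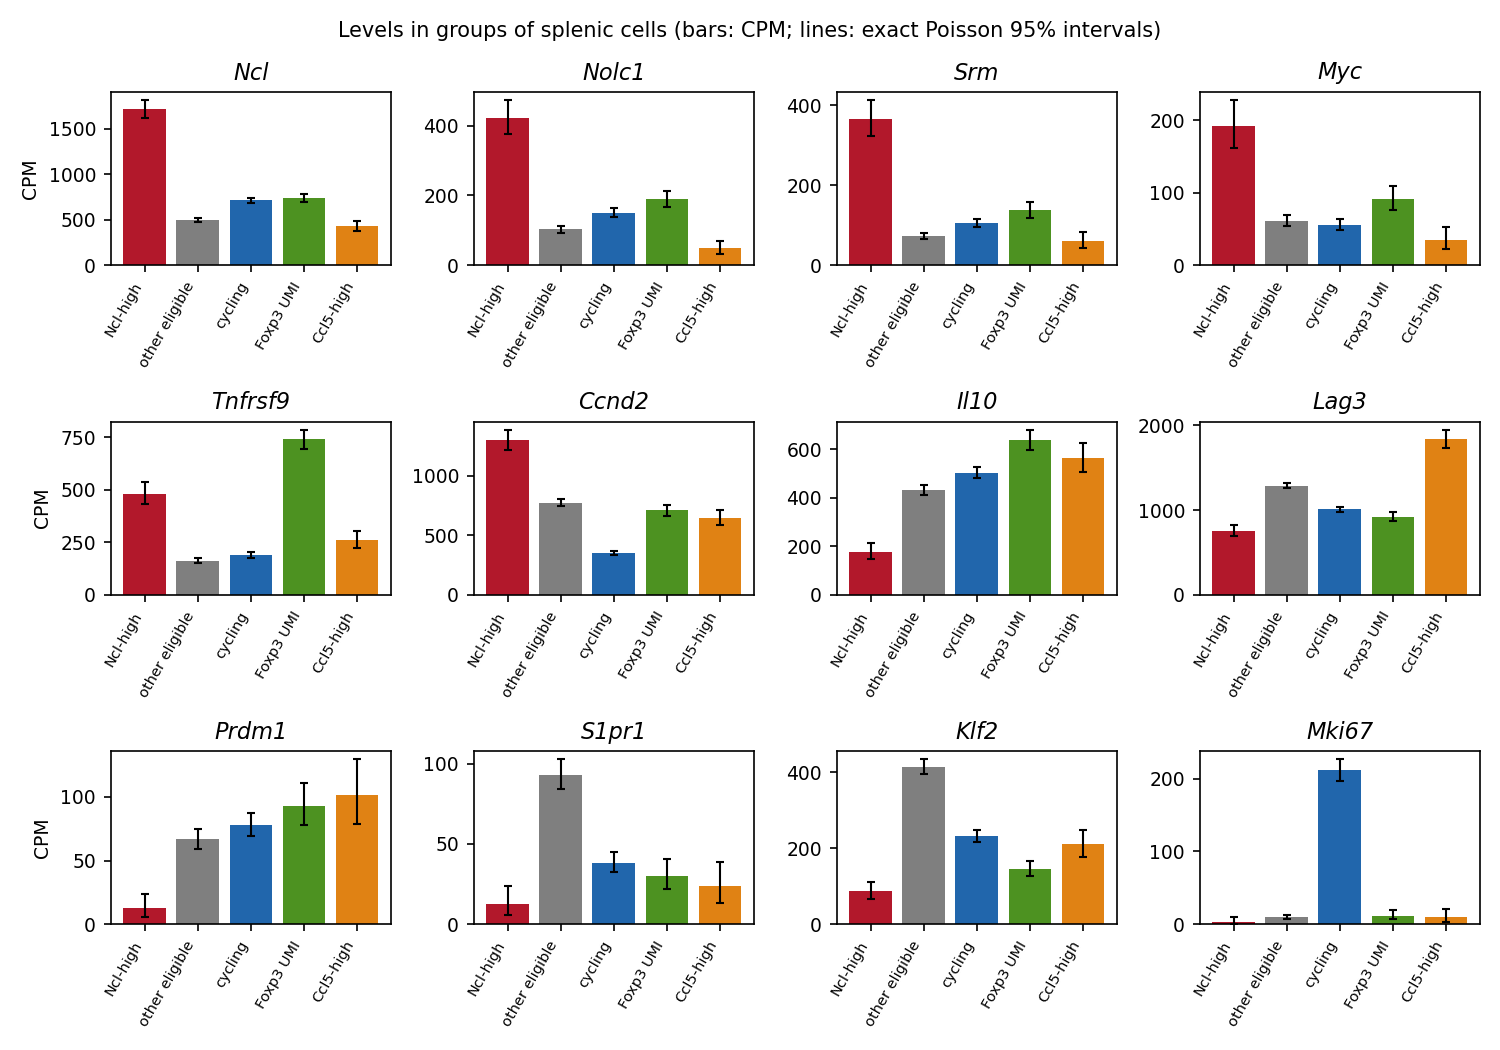
CPM of 12 genes in Ncl-high, other eligible, cycling, Foxp3 UMI and Ccl5-high splenic cells (bars from 0), with exact Poisson 95% intervals as lines. Ncl, Nolc1, Srm, Myc and Ccnd2 are highest in the Ncl-high cells, Tnfrsf9 is highest in Foxp3 cells, and Il10 is lowest in the Ncl-high cells (177 CPM).

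In the small intestine no eligible cell reached the splenic border (0 of 168, which by the floor of 3 counts allows a share of up to 1.79%). The 10% of highest scores there were 17 cells with a border of 0.303% and 61584 UMIs in all. Their median depth was 3595 UMIs against 3558 in the other 151 eligible cells, a ratio of 1.01. Summed ribosome assembly genes had a log2 ratio of 1.20 (0.998 to 1.40) and nucleotide and one-carbon genes one of 0.81 (0.48 to 1.13). B cell markers were higher in these 17 cells, at 958 against 555 CPM (59 UMIs, 43 of them Cd74, with Cd79b, Ms4a1 and Pax5 at 0; log2 ratio 0.79, 0.36 to 1.19), and so were plasma cell markers, at 195 against 88.3 CPM (12 UMIs, 11 of them Xbp1, with Sdc1, Tnfrsf17 and Jchain at 0). Their part in the intestinal values was not tested. Tnfrsf9 stood at 455 against 86.5 CPM (log2 ratio 2.39, 1.67 to 3.10). Il10 stood at 373 against 596 CPM (log2 ratio -0.67, -1.35 to -0.06), and the summed IL-10 and coinhibitory list had a log2 ratio of -0.29 (-0.45 to -0.13). Both tissues were single libraries of different depth, so that differences between them cannot be told apart from differences between libraries.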

How the data were processed

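The 2 deposited matrices hold raw UMI counts per gene and cell; per the study's methods and the submitters' processing notes the authors used Cell Ranger and the mm10 build (mm8 and Trimmomatic are also named there, and versions are not given in the sources used here). Cells with limits of 3 median absolute deviations on UMIs, genes and mt- share, one reading of the filter in the study's methods, number 1648 of 1738 in the spleen, with all 96 Ncl-high cells kept, and 1339 of 1474 in the small intestine; this filter was not applied.

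UMIs were summed per group of cells. Levels are CPM with exact Poisson intervals, and log2 ratios carry exact binomial (Clopper-Pearson) 95% intervals, both for counting error only. A gene counted as higher or lower at 1.5-fold with at least 200 UMIs over both groups; no pseudocount was used, and no test was possible with 1 library per tissue. Members and gene lists were chosen with earlier results of these data known. Genes named were drawn from the 5 of the score, the 12 highest and 12 lowest ratios and the 8 most variable. Others came from the 3 most abundant, the highest and the lowest of each list, fixed genes such as Il10 and Myc, and markers of other cell types. Not every gene of these classes is named. Chromosome positions come from GENCODE vM21 (GRCm38) and promoters from RefSeq. Counts were also simulated for this comparison, with 2912 unchanged and 200 changed genes. There 95.5% of changed genes passed 1.5-fold in the right direction, and 4.26% of unchanged genes passed it. The simulation had a set group of changed cells, of which the score found 99.0%, whereas the real score had no gap at its border. Real counts of some genes also varied between cells far beyond counting error, such as Malat1 (variance over mean 41.5 in the Ncl-high cells). The simulated percentages are therefore not error rates for the genes called higher or lower here. Python 3.11.15, numpy 2.4.6 (also for components and neighbours), scipy 1.17.1 and scanpy 1.11.5 (Scrublet) were used.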

Additional observations from a re-analysis of the deposited data

How the results depend on the processing

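No paired analysis was possible because each tissue is 1 library, and no replicate could be left out. Counts at 1.5-fold (580 higher, 778 lower) were 259 and 376 at 2-fold, 1291 and 1853 with a minimum of 50 UMIs, 2763 and 5331 with a minimum of 1 UMI, and 20 and 62 in the small intestine, where 461 genes had 200 UMIs. The median of the ribosome biogenesis list stayed between 1.25 (no filter on Foxp3, Ccl5 or cycling genes) and 1.56 in the splenic alternatives, and could not be given in the small intestine.

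The Il10 log2 ratio stayed below 0 in each alternative but shrank to -0.95 with 0 UMIs of the cycling genes, -0.79 with the highest 20% of the score, -0.71 without the filters, -0.57 with cells thinned to 2000 UMIs, -0.74 with cells chosen on a random part of their UMIs (an alternative added after seeing the data) and -0.67 in the small intestine. The median of the IL-10 and coinhibitory list was -0.66, -0.53, -0.52, -0.66, -0.67 and -0.32 in the same order, and -0.76 with the score without Mif. The ratio of median UMIs was 1.37 without the filters, 1.03 with other cells matched on UMIs (its construction) and 1.01 in the small intestine. The neighbour share was 49.5% after thinning. The causes were not tested.

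Among single genes whose interval left out 0, these changed sign: Ccl4 to 0.57 with the highest 20%; Ccr7 to -0.20, Eef2 to 0.019 and Gzmb to 0.069 after thinning; Rps27 to 0.060 without the filters and 0.17 with matched cells; Tnfrsf4 to -0.029 with the highest 5% and -0.043 with matched cells. Of those with 200 UMIs in the small intestine, Ccnd2 was at -0.067, Cox6c at 0.065, Cox8a at 0.033, Eef2 at 0.083, H2afz at 0.55, Ly6a at 0.32, Oaz1 at 0.0049, Rps27 at 0.41 and Tnfrsf18 at 0.67 there, and Klf2, with fewer UMIs, was at 1.43. Other genes named moved by over 1.5 times but stayed past 1.5-fold, and the values here are examples. With the highest 20%, Klf2 went from -2.25 to -1.66 and Cdkn1b from -2.21 to -1.50. After thinning, S100a11 went from -1.45 to -0.66 and Mpp6 from 2.42 to 1.78. Matched cells took Cdca7 from 2.02 to 1.39, and the score without Npm1 took Egr1 from -1.48 to -0.76. Without the filters Hmgb2 went from -1.65 to -0.87. With cells chosen on a random part of their UMIs, Rtp4 went from -2.78 to -1.62. Away from 0, the furthest splenic alternative was -2.67 for S100a6 (-1.50 in the main run) and -4.19 for S1pr1 (-2.88). It was -4.14 for Gm26740 (-3.29) and -3.81 for Tmem71 (-3.12). Genes near 0, such as Cd200, Max and Jund, also crossed it in some alternatives. Depth limits low genes most: 3 UMIs in the 96 cells are 4.21 CPM, and in the 17 intestinal cells 48.7 CPM.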
